A study of Mus musculus with 18 samples.

Results

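Binucleated cardiomyocytes of the mouse heart at P7, the seventh day after birth, were compared with mononucleated ones, using 3 libraries of each class, 6 of the 18 in the series, and all 12048 listed genes. The libraries were chosen by their labelled age and number of nuclei alone. All mice carried Mlc2vcre:R26REYFP, in which Cre recombinase under control of the ventricular myosin light chain gene Mlc2v (Myl2) switches on a yellow fluorescent protein reporter, and the labels name no other allele and no treatment for either class. Cells of dissociated hearts were separated by flow cytometry, and the sources used here do not give the property that told 1 nucleus from a pair. Cells of the same genotype at E18.5, late in gestation, and from adults, again sorted by nuclear number with 3 libraries per class, entered the model and were used to ask whether the P7 class difference differed from that at other ages. Whether the replicates are separate animals is not stated, and p-values therefore refer to the spread between these libraries only, which may be technical.

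Mouse cardiomyocytes divide before birth and most stop soon after it. Many pass through a last round of DNA synthesis and nuclear division without separating into daughter cells, which leaves a pair of nuclei in one cell, while a minority keep a single nucleus. The genes of genome duplication are switched on together by E2F transcription factors once cyclin and CDK activity has inactivated the retinoblastoma family, whereas the genes of mitosis and cytokinesis peak later and depend on the MuvB complex, which acts through a promoter element named CHR.

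The binucleated libraries had lower levels of genome duplication, DNA repair and conduction system transcripts, and few genes were higher. Most mitotic and kinetochore genes also had a fold change below 1, and how many of them were called depended on the fit. In a limma fit of all 18 libraries 248 genes were lower in binucleated cells, 2.06% of those tested, and 8 were higher, 0.0664%, together 256 genes or 2.12%. The lower genes had a median fold of 3.28. Of them 207 had a log2 fold change below −1 and 94 below −2, while 2 of the 8 higher genes lay above 1. All 256 had 3 values per class that did not overlap, a property that 1766 genes, 14.7%, shared in the downward and 1186, 9.84%, in the upward direction. At an unadjusted p under 0.05 there were 1210 genes. Libraries with the same replicate number deviated together, so a paired limma fit of the P7 libraries was made as well: it called 688 genes lower, 5.71%, and 90 higher, 0.747%, including 247 of the 248 and all 8. Without E18.5 binucleated replicate 1, which had the lowest array weight of the 18 libraries (0.049), the 18-library fit called 475 lower and 99 higher. Without any 1 of the P7 libraries it called 126 to 163 lower and 3 to 7 higher, and 106 of the lower and 2 of the higher genes were called every time. In bulk libraries, fewer cells that hold a transcript and less of it per cell cannot be told apart.

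Levels are given below as scaled counts, that is, read counts recovered from the deposited log2 values and brought to a common library size with the deposited factors, in the order of replicates 1, 2 and 3. Recovered totals ran from 16476191 to 20909939 in the mononucleated and from 16214426 to 19688424 in the binucleated libraries. Scaled counts grow with transcript length and are compared between libraries only. Fold changes and standard errors (SE) are on the deposited log2 scale, binucleated minus mononucleated with n = 3 per class, and a call means a Benjamini-Hochberg adjusted p under 0.05 over all genes.

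**Figure D1:**
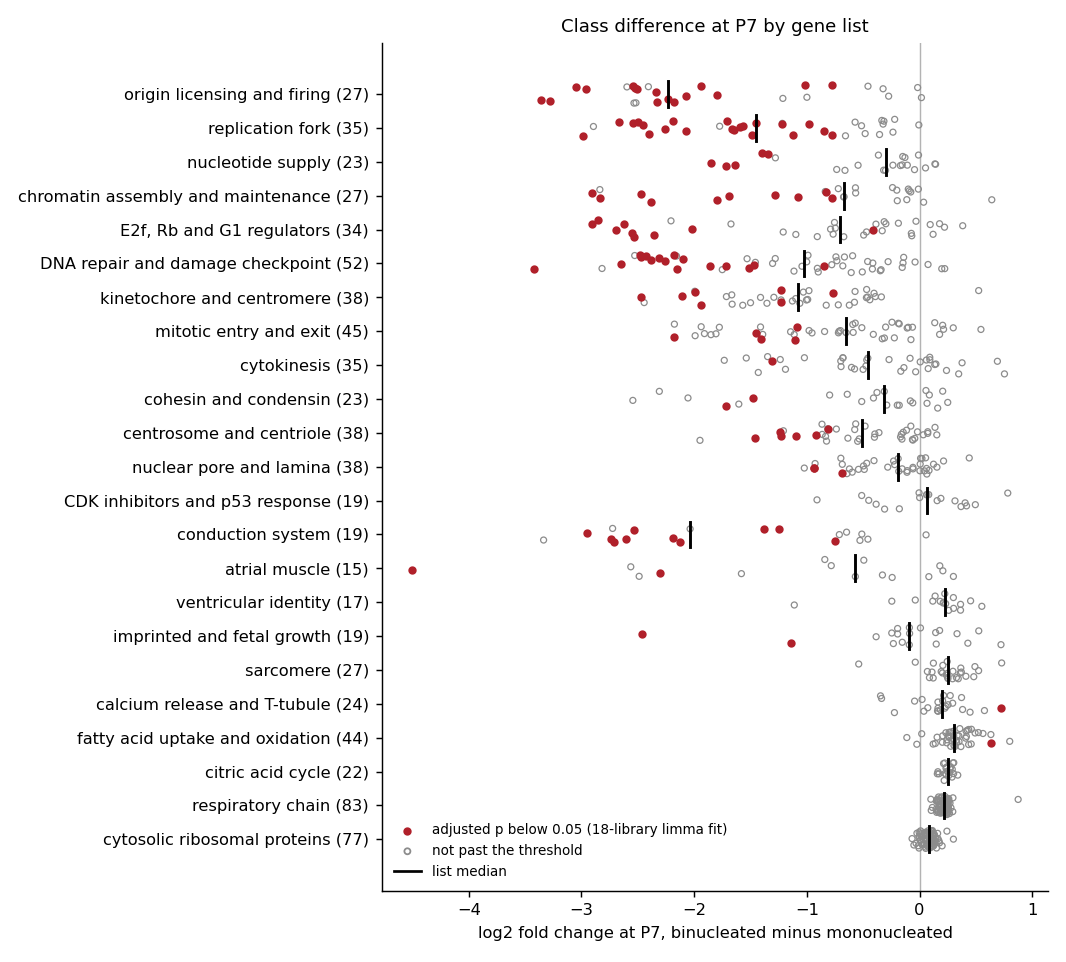
Log2 fold changes at P7, binucleated minus mononucleated, for the measured members of 23 gene lists, with the number of members in parentheses. Each point is a gene, filled points passed the 18-library limma test and black bars are list medians. Medians of origin licensing and conduction genes lie near −2, whereas those of the sarcomere, fatty acid, citric acid cycle and respiratory chain lists lie between 0.2 and 0.4.

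Origin licensing and firing genes, which load the replicative helicase on DNA in G1 and activate it in S phase, were the list with the lowest median. Of 27 measured, 16 were lower (22 in the paired fit), and the median log2 fold change was −2.23 against 0.02 over all genes. The 6 helicase subunit genes Mcm2 to Mcm7 were each lower, by 3.84- to 5.82-fold. Mcm6 had scaled counts of 3363, 5214 and 5069 in the mononucleated and 851, 535 and 988 in the binucleated libraries (log2 fold change −2.54 ± 0.29 SE, limma adjusted p = 0.000185). Mcm5 had 1918, 2871 and 2577 against 448, 304 and 545 (−2.52 ± 0.32 SE). Mcm4 showed the smallest change of the 6, 1518, 2246 and 1809 against 500, 350 and 618 (−1.94 ± 0.32 SE, limma adjusted p = 0.0028). In each of these genes the lowest mononucleated library was more than 2 times the highest binucleated one. Cdt1, which brings the helicase to origins, had 644, 1021 and 897 against 140, 68.6 and 128 (limma adjusted p = 0.000521). Its partner Cdc6 had 327, 636 and 508 against 78.9, 30.8 and 75.2. The Cdc6 call was lost without any 1 of the P7 libraries (limma adjusted p up to 0.179, without binucleated replicate 2), without any 1 of the E18.5 mononucleated libraries, whose lowest and highest limma adjusted p were 0.0503 and 0.0519, and when all E18.5 libraries were left out (0.0615). The genes of the list that neither fit called were Gins4, Orc2, Orc3, Orc4 and Orc5.

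Replication fork genes followed, with 21 of 35 lower (26 in the paired fit) and a median of −1.45. All 35 had a fold change below 1, against 5574 of all 12048 genes. Rpa2, a subunit of the single-strand DNA binding complex, had 1415, 1820 and 1988 in the mononucleated and 566, 419 and 616 in the binucleated libraries (−1.71 ± 0.17 SE, limma adjusted p = 8.02e-05). Rfc5, a subunit of the clamp loader, had 828, 1085 and 1307 against 316, 314 and 371 (−1.67 ± 0.19 SE). The primase subunit gene Prim1 had 824, 1381 and 1408 against 207, 174 and 269 and a larger fold, 5.48 (limma adjusted p = 0.000232). For all 3 genes the lowest mononucleated library was replicate 1. The sliding clamp gene Pcna, named here after its values were seen, had 1589, 2861 and 2676 against 785, 834 and 849 (−1.48 ± 0.22 SE, limma adjusted p = 0.000909).

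Nucleotide supply genes were split. The 5 lower of 23 included Rrm2, Tk1, Dck and Rrm1, and the paired fit called 9. Rrm2, the S-phase subunit of ribonucleotide reductase, had 4662, 6310 and 7032 against 1604, 1551 and 1756 (−1.85 ± 0.19 SE, limma adjusted p = 8.02e-05). The thymidine kinase gene Tk1 was 3.28-fold lower and Dck, the deoxycytidine kinase gene, 3.11-fold (limma adjusted p = 0.000481 and 0.000983). The list median was −0.30, as the remaining members lay closer to 0. Chromatin assembly and maintenance genes, which package and mark new DNA, had 10 of 27 lower (14 paired; median −0.68). Uhrf1, which guides maintenance DNA methylation to the fork, had 1127, 1663 and 1256 against 159, 147 and 274 (−2.84 ± 0.40 SE, limma adjusted p = 0.000717). The histone chaperone genes Asf1b and Nasp were 3.48-fold and 1.77-fold lower (limma adjusted p = 0.000725 and 0.00219). Nasp had 1849, 2544 and 2050 against 1148, 1189 and 1264, a small but even difference. Chaf1b, a subunit of the chromatin assembly factor, was 7.49-fold lower (528, 683 and 695 against 65.5, 81.6 and 110), a call lost without any 1 P7 library but binucleated replicate 3 (limma adjusted p from 0.057 to 0.0947).

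**Figure D2:**
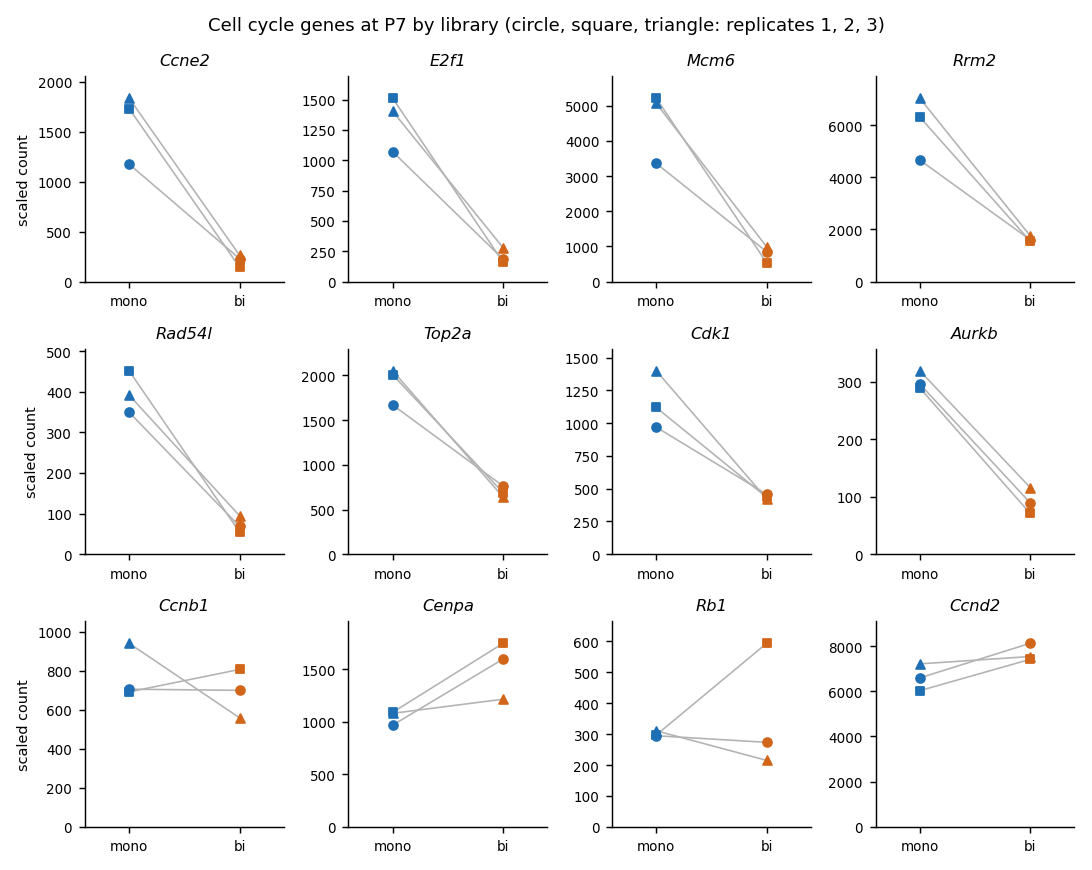
Scaled counts of 12 cell cycle genes in the P7 libraries, with mononucleated (mono) and binucleated (bi) libraries of the same replicate number joined by a line. Ccne2, E2f1, Mcm6, Rrm2 and Rad54l fall several-fold in all 3 pairs, Top2a, Cdk1 and Aurkb less, and Ccnb1, Cenpa, Rb1 and Ccnd2 show no such fall.

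Among the regulators that start this programme, the E-type cyclins and part of the E2F family were lower. Ccne2, the gene of cyclin E2, which activates CDK2 at the start of S phase, had the smallest adjusted p of all genes: 1176, 1732 and 1836 in the mononucleated and 230, 144 and 264 in the binucleated libraries (−2.91 ± 0.24 SE, limma adjusted p = 1.68e-05). Ccne1 had 593, 937 and 707 against 128, 148 and 154 (limma adjusted p = 0.000232). The kinase gene Cdk2 itself was 1.68-fold lower in the paired fit (limma adjusted p = 0.00699; 0.0617 in the 18-library fit). E2f1, an activator of S-phase genes, had 1070, 1511 and 1404 against 186, 160 and 279 (limma adjusted p = 0.000282), and E2f8, an atypical repressor of the same genes, 254, 325 and 323 against 37.5, 56.8 and 62.3 (limma adjusted p = 0.000365). Activators and repressors thus moved in one direction. Also called were the activator gene E2f2 and the repressor gene E2f7, at 7.23-fold and 5.86-fold lower (limma adjusted p = 0.0237 and 0.0412). E2f7 was not called without any 1 of 10 libraries, 5 from P7, all 3 E18.5 mononucleated ones and E18.5 binucleated replicates 2 and 3, at limma adjusted p from 0.0502 to 0.191, nor when all E18.5 libraries were left out (0.0678). E2f2 lost its call at limma adjusted p = 0.138 without P7 mononucleated replicate 3. The remaining members E2f3, E2f4 and E2f5, named after their values were seen, had log2 fold changes of −0.30 ± 0.32 SE, −0.19 ± 0.13 SE and −0.03 ± 0.26 SE, none called in either fit.

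The retinoblastoma family showed an uneven pattern. Rbl1, the gene of p107, had 474, 741 and 708 against 211, 104 and 168 (−2.02 ± 0.28 SE, limma adjusted p = 0.000601). Rb1 had 295, 297 and 311 against 273, 594 and 215, so its binucleated values straddled the mononucleated ones (0.12 ± 0.37 SE, limma adjusted p = 0.995), and without binucleated replicate 2 its value was negative, −0.31. Rbl2, the gene of p130, had 1102, 1097 and 826 against 1159, 1026 and 1214 (0.18 ± 0.36 SE). Among D-type cyclins, which act at the G1 step, Ccnd3 was 1.33-fold lower (limma adjusted p = 0.0293, 0.163 without P7 binucleated replicate 1). Ccnd2 had 6593, 6026 and 7214 against 8126, 7416 and 7540 (limma adjusted p = 0.904), and Ccnd1 had few counts, 40.6, 16 and 32.2 against 17.3, 8.28 and 10.8 (limma adjusted p = 0.354). In all, 9 of the 34 regulators were lower (19 paired; median −0.71).

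Of 19 CDK inhibitor and p53 response genes 0 passed the 18-library limma test (5 at an unadjusted p under 0.05), and the median was 0.06 (0.13 with quantile normalization and −0.04 with scaling to library totals). Cdkn1a, the gene of p21, had 1451, 1582 and 1523 against 1323, 1735 and 1049 (−0.18 ± 0.45 SE, limma adjusted p = 0.993). Cdkn1b, the gene of p27, had 176, 148 and 140 against 230, 204 and 181 (0.40 ± 0.34 SE, limma adjusted p = 0.886), with no overlap between the classes. Cdkn1c, the gene of p57, had 114, 83.6 and 121 against 75.1, 103 and 66.6 (limma adjusted p = 0.696). The paired fit called 4 members, 3 higher and 1 lower, against 90 and 688 of all 12048 genes. In all 3 pairs 9 members were higher and 3 lower, against 2383 and 2726 of all genes. Ccng1, Tob1 and Trp53inp1 rose 1.33-, 1.41- and 1.72-fold (limma adjusted p = 0.0325, 0.0351 and 0.00747), and Cdkn2c, the gene of p18, fell 1.88-fold (0.00387).

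DNA repair and damage checkpoint genes had 17 of 52 lower (33 paired; median −1.02). Mms22l, which acts in the repair of stalled forks, had 480, 568 and 609 against 90.5, 104 and 102 (−2.47 ± 0.25 SE, limma adjusted p = 8.02e-05). The checkpoint kinase gene Chek1 and the recombination gene Rad54l were 4.78-fold and 5.56-fold lower (limma adjusted p = 0.000637 and 0.000646). Most of the remaining members pointed down as well: 49 of the 52 had a fold change below 1, and 44 were lower in all 3 pairs. Over all 12048 genes the numbers were 5574 and 2726.

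How many mitotic genes passed depended on the estimate of spread. Of 45 mitotic entry and exit genes 5 were lower (Top2a, Mad2l1, Mastl, Tpx2 and Nusap1), with a median of −0.65. The count was 21 in the paired fit, 19 in an unpaired fit of the P7 libraries alone and 7 in the 18-library fit without E18.5 binucleated replicate 1. Top2a, the topoisomerase that separates sister DNA, had 1669, 2007 and 2051 in the mononucleated and 761, 686 and 638 in the binucleated libraries (−1.45 ± 0.23 SE, limma adjusted p = 0.00198). Mad2l1, of the spindle checkpoint, was 2.15-fold lower (limma adjusted p = 0.00452), and Mastl, a kinase that holds the mitotic state, 4.53-fold (limma adjusted p = 0.00463).

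Genes commonly used to mark dividing cells were called in fits of the P7 libraries alone, paired or not, and missed in the 18-library fit. Cdk1, the mitotic kinase gene, had 970, 1120 and 1401 against 458, 434 and 422, values far apart (−1.39 ± 0.55 SE, limma adjusted p = 0.000698 paired and 0.329 with 18 libraries). Mki67 had 804, 735 and 799 against 369, 478 and 348 (−0.98 ± 0.42 SE, limma adjusted p = 0.00516 and 0.415). Ccna2, the cyclin of S phase and early mitosis, had 1227, 1150 and 1349 against 747, 848 and 609 (−0.77 ± 0.31 SE, limma adjusted p = 0.0156 and 0.357). Aurkb, a kinase of the chromosomal passenger complex, had 296, 290 and 320 against 89.5, 71 and 116 (−1.73 ± 0.52 SE, limma adjusted p = 0.000972 and 0.122). In the paired fit of the P7 libraries the SE were smaller, 0.147 for Cdk1, 0.152 for Mki67, 0.147 for Ccna2 and 0.198 for Aurkb. An unpaired fit of those libraries called them as well (limma adjusted p = 0.000955, 0.00477, 0.0131 and 0.00194, in the same order). All 4 genes were lower in 3 of 3 pairs. Ccnb1, the gene of cyclin B1, differed from them: its values of 706, 692 and 941 and 700, 807 and 559 overlapped and neither fit called it (−0.18 ± 0.41 SE, limma adjusted p = 0.634 and 0.984). Cenpa, the centromeric histone gene, had 967, 1089 and 1080 against 1597, 1746 and 1214, higher in all 3 pairs. It passed neither the paired nor the 18-library test (limma adjusted p = 0.0535 and 0.522), but was called higher without E18.5 binucleated replicate 1. Cenpa was chosen after its values were seen.

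Kinetochore and centromere genes had 7 of 38 lower (27 paired, 24 in the unpaired fit of the P7 libraries and 15 without E18.5 binucleated replicate 1), with a median of −1.08 and a fold change below 1 in 37. Cenpk, of the inner kinetochore, had 343, 506 and 584 against 122, 79.3 and 128 (−2.11 ± 0.38 SE, limma adjusted p = 0.00527). Mis18a, which prepares centromeres for new histone, was 3.99-fold lower (limma adjusted p = 0.0153, 0.105 without P7 mononucleated replicate 3), and Nsl1, of the outer kinetochore, 5.56-fold (limma adjusted p = 0.0155, 0.0969 without P7 binucleated replicate 2). The cytokinesis list, which holds the genes of the cleavage furrow and midbody, had the fewest calls of the division lists, 1 of 35 (10 paired; median −0.46). The member called was Incenp, the scaffold of the passenger complex, with 320, 348 and 400 against 158, 146 and 126 (limma adjusted p = 0.00702, 0.051 without P7 mononucleated replicate 3). Anln, the furrow scaffold anillin, had 822, 660 and 697 against 541, 521 and 382 (limma adjusted p = 0.0401 paired and 0.717 with 18 libraries). Kif23, Ect2 and Racgap1, of the central spindle and named after their values were seen, had log2 fold changes of −0.58 ± 0.70 SE, −0.70 ± 0.58 SE and −0.50 ± 0.50 SE, and neither fit called them.

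Chromosome structure, centrosome and nuclear envelope genes were counted next. In cohesin and condensin 2 of 23 were lower (8 paired; median −0.31), the condensin genes Smc2 (583, 937 and 989 against 401, 241 and 256, limma adjusted p = 0.00206) and Ncaph (3.29-fold, limma adjusted p = 0.0251, 0.11 without P7 binucleated replicate 1). Centrosome and centriole genes had 6 of 38 lower (13 paired; median −0.51). Tubg1, the gene of gamma-tubulin, which nucleates microtubules, was 1.76-fold lower with little spread, 1554, 1698 and 1852 against 927, 890 and 1084 (−0.82 ± 0.11 SE, limma adjusted p = 0.000624). The augmin subunit genes Haus5 and Haus4 were 2.76-fold and 2.14-fold lower (limma adjusted p = 0.000665 and 0.00915; 0.063 for Haus4 without P7 binucleated replicate 2).

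Of 38 nuclear pore and lamina genes 3 were lower (9 paired; median −0.19). They were Tmpo, the lamina-binding thymopoietin gene, at 1.61-fold, and the pore genes Nup85 and Nup35 at 1.91- and 1.92-fold (limma adjusted p = 0.00822, 0.0119 and 0.0291). All 3 calls were lost without 1 P7 library, at limma adjusted p up to 0.0541, 0.0885 and 0.147. The lamin gene Lmnb1 had 618, 541 and 537 against 337, 369 and 338 (limma adjusted p = 0.02 paired and 0.589 with 18 libraries). In the tubulin list 3 of 18 were lower (5 paired). Tubb5, a beta-tubulin of proliferating cells, had 4333, 6022 and 6398 against 2366, 2504 and 2370 (−1.19 ± 0.17 SE, limma adjusted p = 0.000754). Map1b and Tubb4a were 1.77- and 5.83-fold lower, calls lost without 1 P7 library (limma adjusted p up to 0.154 and 0.166). Of 15 replication-dependent histone genes 0 passed the 18-library test (3 lower in the paired fit; median −0.04). The histone and tubulin families hold near-identical copies, so their single-gene values are uncertain.

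The promoters of these genes were searched for the letters of both elements named in the background, in the window from 250 bases before to 50 after each start listed by RefSeq (GRCm38.p6), which matched 9376 of the 12048 genes. The E2F-type letters were TTTCCCGC, TTTGGCGC, TTTCGCGC or TTTGCCGC on either strand. CHR was TTTGAA on either strand. Upstream sequences of 6 genes with 1 listed start, each lower in at least one fit, show where the letters fall. They are the 100 bases before the start, 5′ to 3′ on the gene's strand, with every match to either element in capitals. The helicase gene Mcm6 (chr1:128359706-128359805, minus strand), the p107 gene Rbl1 (chr2:157204535-157204634, minus strand) and Gins3, of the helicase activation complex (chr8:95633459-95633558, plus strand), hold E2F-type letters. In Gins3 they stand as the reverse complement, and CHR letters follow them.
Mcm6: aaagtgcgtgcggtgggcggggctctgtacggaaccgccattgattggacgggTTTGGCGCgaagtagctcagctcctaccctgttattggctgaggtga
Rbl1: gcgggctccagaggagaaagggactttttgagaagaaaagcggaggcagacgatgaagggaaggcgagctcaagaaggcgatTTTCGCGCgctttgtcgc
Gins3: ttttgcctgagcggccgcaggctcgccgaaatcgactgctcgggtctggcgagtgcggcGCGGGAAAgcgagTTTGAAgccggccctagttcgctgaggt
Top2a (chr11:99024190-99024289, minus strand), Cdk1 (chr10:69352913-69353012, minus strand) and the kinetochore gene Ska3 (chr14:57826164-57826263, minus strand) hold CHR letters, as the reverse complement in Top2a and Ska3.
Top2a: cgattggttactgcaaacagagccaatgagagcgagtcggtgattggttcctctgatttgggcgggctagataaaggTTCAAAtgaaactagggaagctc
Cdk1: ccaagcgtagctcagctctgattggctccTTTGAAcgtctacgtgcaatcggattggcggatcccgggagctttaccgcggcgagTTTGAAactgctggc
Ska3: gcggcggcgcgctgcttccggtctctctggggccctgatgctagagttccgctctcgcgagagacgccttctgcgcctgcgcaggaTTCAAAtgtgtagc

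E2F-type letters stood in the window of 4.78% of all matched genes and in 35 of the 196 matched genes that were lower (17.9%), and in 0 of the 8 that were higher. By list they were found in 9 of 20 origin licensing promoters (45%), 9 of 29 fork promoters (31%), 4 of 39 mitotic promoters (10.3%) and 0 of 24 cytokinesis promoters. CHR letters were present in 14.1% of all matched genes, in 36 of the 196 that were lower (18.4%) and in 1 of the 8 that were higher. They were found in 23 of 39 mitotic (59%), 15 of 33 kinetochore (45.5%) and 12 of 24 cytokinesis promoters (50%), against 3 of 29 fork promoters (10.3%). Over 11 lists of duplication and division genes, 45 genes with E2F-type letters alone had a median of −1.22 on the log2 scale, and 21 (46.7%) were lower. The 80 genes with CHR letters alone had a median of −0.81, and 12 (15%) were lower. Of the 162 genes with neither, 43 (26.5%) were lower, with a median of −0.51, and of the 15 with both, 5 (33.3%). In the paired fit the numbers were 31 of 45 (68.9%), 49 of 80 (61.3%), 74 of 162 (45.7%) and 10 of 15 (66.7%). At E18.5 the median class difference of the same genes was −0.12 for E2F-type letters alone and 0.47 for CHR alone. These lists were drawn up by function, and both the letters and the lists follow known cell cycle biology. A match describes the sequence and does not show that a factor binds there.

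**Figure D3:**
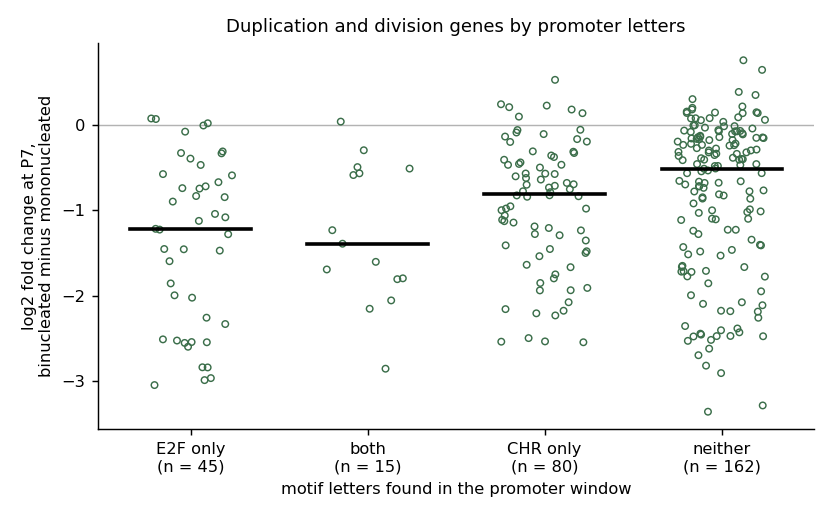
Log2 fold change at P7, binucleated minus mononucleated, of genes from 11 duplication and division lists, grouped by the letters found in their promoter window. Points are genes and bars are medians, −1.22 for E2F-type letters only, −1.39 for both, −0.81 for CHR only and −0.51 for neither.

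Among the lists outside the cell cycle, that of conduction system genes had the lowest median. Like the other lists, it was drawn up with earlier results of these data known. Of 19 genes that mark the sinoatrial and atrioventricular nodes or the Purkinje network, 10 were lower in binucleated cells (15 paired), with a median of −2.04. Gja5, the connexin of fast-conducting cells, had 4453, 1587 and 2791 in the mononucleated and 361, 231 and 512 in the binucleated libraries (−2.95 ± 0.45 SE, limma adjusted p = 0.00148). Etv1, a transcription factor of the Purkinje network, had 2208, 1308 and 1824 against 472, 343 and 388 (−2.13 ± 0.23 SE, limma adjusted p = 0.000132). Ntm, which encodes the adhesion protein neurotrimin, had 1736, 850 and 920 against 217, 140 and 158 (−2.71 ± 0.35 SE), and Slit2, a secreted guidance protein gene, 1594, 637 and 618 against 117, 108 and 167 (−2.73 ± 0.38 SE). In all 4 genes the highest mononucleated value was that of replicate 1, and the classes did not overlap. The nodal transcription factor gene Tbx3, chosen after its values were seen, had 423, 227 and 443 against 85.7, 50.9 and 101 (limma adjusted p = 0.00512). Hcn4, the pacemaker channel gene, had 292, 166 and 263 against 67.4, 37.9 and 70.9 and passed in the paired fit alone (limma adjusted p = 0.000611; 0.0746 with 18 libraries). Cntn2, a Purkinje adhesion gene, had the largest fold of the list, 10.1, with 2003, 707 and 1123 against 116, 60.3 and 218 (limma adjusted p = 0.000245 paired and 0.352 with 18 libraries).

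Atrial and ventricular genes were examined beside them, because the Cre driver is a ventricular gene. Of 15 atrial muscle genes 2 were lower (6 paired; median −0.57). Stard10, which encodes a lipid transfer protein, had 1692, 770 and 1394 against 286, 237 and 221 (−2.31 ± 0.34 SE, limma adjusted p = 0.00104). For the atrial growth factor gene Bmp10, 88 reads were recovered from the mononucleated and 2 from the binucleated libraries. Their ratio was 38.3, with a 95% exact interval for counting error of 10.3 to 321 (limma adjusted p = 0.00174). The atrial light chain gene Myl7 stood high in 1 library, with 56.3, 56.9 and 479 against 28.9, 27.2 and 70.9 (limma adjusted p = 0.0395 paired and 0.726 with 18 libraries). Nppa, the natriuretic peptide gene of atrial and trabecular muscle, had 1109, 2484 and 1101 against 643, 1630 and 503, lower in all 3 pairs although the classes overlapped (limma adjusted p = 0.00491 paired and 0.894 with 18 libraries). Replicate 2 was the high library for it in both classes. None of 17 ventricular identity genes passed either limma fit (4 had an unadjusted p under 0.05 with 18 libraries; median 0.22). Myl2, the gene whose promoter drives Cre, had 26218, 30718 and 32965 against 35329, 36436 and 32859 (0.22 ± 0.21 SE, limma adjusted p = 0.924), and its value was −0.01 under quantile normalization.

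**Figure D4:**
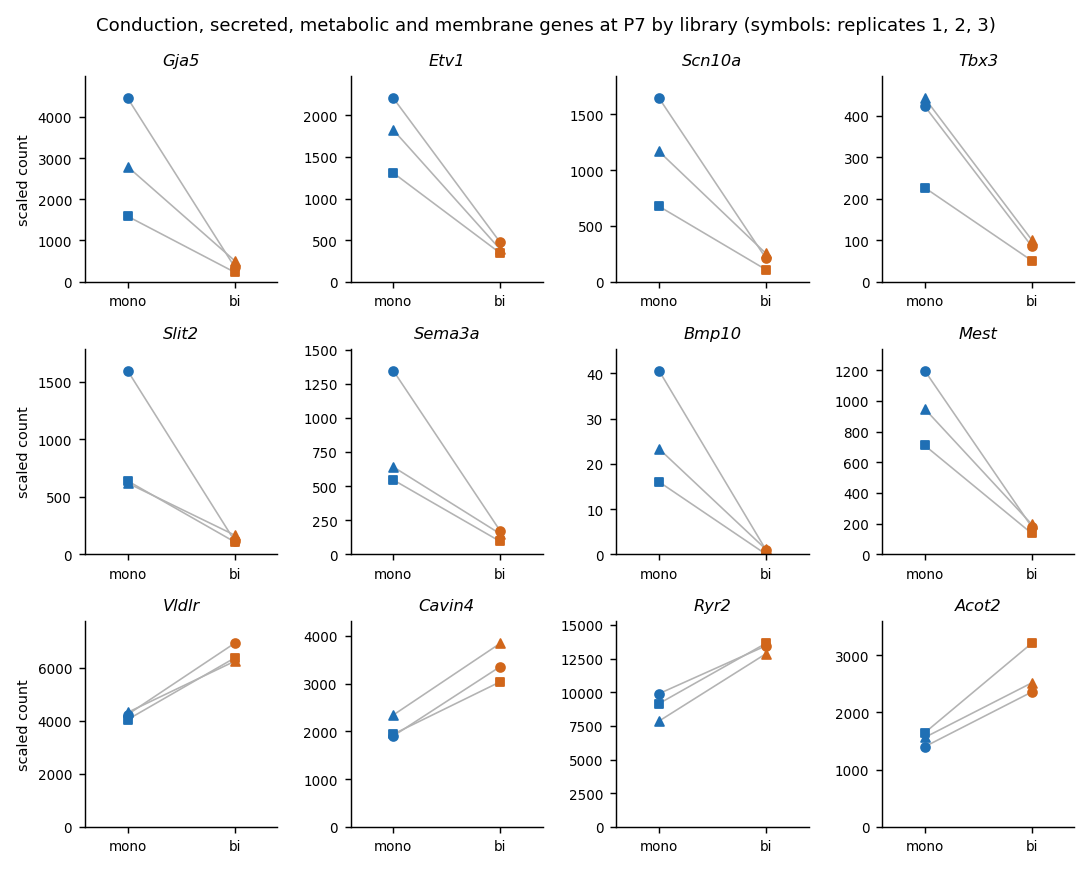
Scaled counts of 12 genes outside the cell cycle in the P7 libraries, mononucleated (mono) and binucleated (bi), with libraries of the same replicate number joined by a line. Gja5, Etv1, Scn10a, Tbx3, Slit2, Sema3a, Bmp10 and Mest fall in every pair, with mononucleated replicate 2 lowest or nearly so, and Vldlr, Cavin4, Ryr2 and Acot2 rise in every pair.

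Conduction and duplication genes were high in different mononucleated libraries. Replicate 1 was the highest of the 3 for 16 of 19 conduction genes and replicate 2 the lowest for 13. For origin licensing genes replicate 1 was the lowest for 23 of 27 and the highest for 1, and for fork genes the lowest for 29 of 35. Over all genes with counts replicate 1 was the lowest for 4861 of 12033 and the highest for 4598. Most members of each set were lower in all 3 pairs, 17 of 19 conduction, 24 of 27 origin licensing and 32 of 35 fork genes. Over all genes 2726 of 12048 were lower in all 3 pairs.

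Of the 248 lower genes 124 belonged to none of the lists, and the genes named from them here were chosen after their values were seen. Sparc, a matrix glycoprotein gene, had 14897, 13345 and 17039 against 6223, 8144 and 7166 (−1.07 ± 0.19 SE, limma adjusted p = 0.00463). Thbs4, of the thrombospondin family, had 1706, 1407 and 1438 against 547, 577 and 516 (−1.47 ± 0.16 SE, limma adjusted p = 0.000162). Igfbp5, an insulin-like growth factor binding protein gene, had 3371, 1003 and 1711 against 563, 476 and 493 (limma adjusted p = 0.0254, 0.133 without P7 mononucleated replicate 1). Sema3c, Fstl1, Igfbp7, Sparcl1, Wif1 and Hbegf, all of which encode secreted proteins or a membrane-bound growth factor, were 5.68-, 2.76-, 5.36-, 3.45-, 2.23- and 2.06-fold lower (limma adjusted p = 0.00594, 0.00594, 0.00429, 0.00406, 0.00644 and 0.000963). Slco3a1, an organic anion transporter gene, ranked among the smallest adjusted p-values with 2473, 1540 and 2063 against 616, 550 and 648 (−1.72 ± 0.17 SE, limma adjusted p = 8.02e-05). Gucy1a1 and Gucy1b1, the subunits of the nitric oxide receptor guanylate cyclase, were 5.94- and 3.24-fold lower (limma adjusted p = 0.000545 and 0.0483; 0.222 for Gucy1b1 without P7 mononucleated replicate 3).

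The naming rule added a few lower genes of large fold. Lmntd1, a gene with a lamin tail domain, had 557, 185 and 740 against 44.3, 27.2 and 86 (limma adjusted p = 0.0117, 0.0907 without P7 mononucleated replicate 3). Slc16a12, a monocarboxylate transporter family gene, had 2235, 1157 and 1635 against 203, 156 and 274 (limma adjusted p = 0.0367, 0.154 without P7 mononucleated replicate 1). Of 19 imprinted and fetal growth genes 2 were lower and the median was −0.09. Mest had 1197, 709 and 948 against 179, 136 and 196 (−2.46 ± 0.26 SE, limma adjusted p = 0.000132) and Ndn, the gene of necdin, 705, 591 and 665 against 330, 280 and 276 (limma adjusted p = 0.0124, 0.0663 without P7 mononucleated replicate 1). Igf2, of the same list, had 1049, 920 and 1118 against 992, 1170 and 945 (0.01 ± 0.30 SE). In the list of growth factor receptors, ligands and their targets 1 of 49 was lower (3 paired; median −0.02), the BMP target Id1, with 42.2, 36.5 and 45.5 against 11.6, 15.4 and 12.9 (limma adjusted p = 0.0293, 0.135 without P7 mononucleated replicate 3).

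All 8 genes that were higher in binucleated cells can be named. Vldlr, a receptor that takes up triglyceride-rich lipoproteins, had 4235, 4046 and 4315 in the mononucleated and 6923, 6368 and 6244 in the binucleated libraries (0.63 ± 0.09 SE, limma adjusted p = 0.000947). Cavin4, a muscle caveolar coat gene tied to T-tubules, had 1903, 1941 and 2343 against 3356, 3039 and 3844 (0.73 ± 0.11 SE, limma adjusted p = 0.00116). Both were called without any 1 of the 18 libraries and in the paired fit. The carbonic anhydrase gene Car14, the sorbitol dehydrogenase gene Sord, the coenzyme Q methyltransferase gene Coq3 and Polr1e, of RNA polymerase I, rose 1.4-, 1.4-, 1.37- and 1.5-fold (limma adjusted p = 0.0214, 0.0367, 0.0403 and 0.0367). Those 4 calls were lost without 1 P7 library (limma adjusted p up to 0.111, 0.205, 0.194 and 0.194). Without 1 library of another age Sord, Coq3 and Polr1e were lost too, at no more than 0.0529, 0.0587 and 0.0535. The last pair had low counts. Iqgap2, a scaffold gene, had 4.97, 10.7 and 4.44 against 34.6, 29.6 and 20.4 (limma adjusted p = 0.0435, 0.203 without P7 mononucleated replicate 3), and Lrrc30 had 3 recovered counts over the mononucleated and 48 over the binucleated libraries, a mononucleated to binucleated ratio of 0.0544 (95% exact interval for counting error 0.0108 to 0.169, limma adjusted p = 0.0291, 0.147 without P7 mononucleated replicate 2).

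Genes of the mature muscle programme lay slightly above 0 as lists, and their size depended on the scaling. Of 44 fatty acid uptake and oxidation genes 1 was higher (8 paired), with a median of 0.31. A fold change above 1 was found in 42, against 6474 of all 12048 genes, and 38 were higher in all 3 pairs, against 2383. The paired calls included Vldlr, Hadha, Acot2, Plin5, Acsl1, Ucp3 and Angptl4. Acot2, a mitochondrial acyl-CoA thioesterase gene, had 1401, 1645 and 1563 against 2356, 3209 and 2516 (0.80 ± 0.21 SE, limma adjusted p = 0.00191 paired and 0.0617 with 18 libraries). Hadha, of mitochondrial beta-oxidation, had 21612, 18609 and 18391 against 27087, 24652 and 26710 (limma adjusted p = 0.0337 paired and 0.0526 with 18 libraries). All 22 citric acid cycle genes (median 0.25) and all 83 respiratory chain genes (median 0.22) had a fold change above 1, yet none of either list passed the 18-library limma test (6 and 4 had an unadjusted p under 0.05) and 1, Cox6b2, passed the paired one (1.83-fold, limma adjusted p = 0.0352). All 22 citric acid cycle genes and 44 of the 83 respiratory chain genes were higher in all 3 pairs. Among the mononucleated libraries replicate 1 was the lowest for 21 of the 22 and 81 of the 83, against 4861 of 12033 genes with counts. Without that library the medians were 0.17 and 0.11, and 22 and 80 genes had a fold change above 1. Cytosolic ribosomal protein genes had 0 of 77 called in either fit and a median of 0.09.

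Quantile normalization, which forces one distribution on all libraries, gave medians of 0.16 for fatty acid, 0.04 for citric acid cycle and 0.04 for respiratory chain genes, with 41 of 44, 17 of 22 and 73 of 83 above 1. Scaling to library totals moved the median of all genes by more than 0.1, from 0.02 to −0.08. Under it the medians were 0.20, 0.14 and 0.11, and the median of the cytosolic ribosomal protein genes turned to −0.02. The median of the origin licensing list stayed between −2.34 and −2.20 and that of the conduction list between −2.14 and −1.84 over the 3 scalings.

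Sarcomere genes had 0 of 27 called in the 18-library limma fit (4 at an unadjusted p under 0.05), 1 in the paired fit (Myom2, an M-band gene, 1.44-fold, limma adjusted p = 0.0392) and a median of 0.25, which was 0.03 after quantile normalization. In the calcium release and T-tubule list (24 genes, median 0.20) Cavin4 was called, and the paired fit added the ryanodine receptor gene Ryr2, with 9894, 9158 and 7858 against 13451, 13635 and 12860 (limma adjusted p = 0.0073; 0.105 with 18 libraries), and the L-type calcium channel gene Cacna1c (1.36-fold, limma adjusted p = 0.0499). Of 17 fetal contractile genes 0 were called by limma with 18 libraries (5 at an unadjusted p under 0.05; median −0.01). Myh7, the fetal myosin heavy chain gene, had 26684, 13362 and 15503 against 18427, 10511 and 14571 (limma adjusted p = 0.965), and with array weights its log2 fold change turned to 0.01. The fetal troponin gene Tnni1 had 21234, 25282 and 28431 against 30058, 31529 and 30564 (limma adjusted p = 0.961). The paired fit called 6 of these 17: Tpm2, Nppb and Acta1 higher, and Cnn1, Tagln and Cacna1h lower. Ion channel (28 genes), glycolysis (28), immediate early (23) and mitochondrial ribosomal protein (77) genes had 0 called in either fit. Of 19 cholesterol synthesis genes 0 passed with 18 libraries, and the members lower in the paired fit included Srebf1, Fdps, Idi1 and Sqle (median −0.29). The remaining lists had 0 called with 18 libraries: Yap and Hippo (23 genes; Tead2 and Ccn2 lower in the paired fit), heat shock (29; Hspa1b higher) and class I and interferon genes (19; Ifit2 lower).

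The labelled cell type was checked against 12 cardiomyocyte-defining genes. Their summed scaled counts ran from 854706 to 914243 in the mononucleated and from 1032818 to 1157254 in the binucleated libraries, so the classes did not overlap. The sums over all listed genes did not overlap either, 17317153 to 18284486 against 18950632 to 19538022. The median of the 12 genes was 0.24 (0.00 after quantile normalization). Of 73 measured markers of other cells 4 were lower. The 16 fibroblast markers had sums of 5975 to 7852 in the mononucleated class and 4370 to 5069 in the binucleated one, with Fbln2 and Fbln1 called. Without Gsn, the most abundant of them, the sums were 1636 to 3690 and 1015 to 1338. A fold change above 1 was found in 4 of the 16. Their median was −0.72, and −0.34 without P7 mononucleated replicate 1. Fbln1 had 2379, 1002 and 1887 against 579, 470 and 704 (limma adjusted p = 0.0141, 0.0911 without P7 mononucleated replicate 1), Fbln2 46.4, 80.9 and 36.6 against 1.93, 8.28 and 4.3 (limma adjusted p = 0.00927, 0.0602 without P7 mononucleated replicate 2), whereas the collagen gene Col1a1 overlapped, 67.1, 4.45 and 17.8 against 9.62, 37.9 and 30.1. Endothelial markers summed to 587 to 956 and 562 to 592, with 0 of 20 called. The 11 pericyte and smooth muscle markers, among them Des, which heart muscle also makes, summed to 53143 to 57380 and 56134 to 62836, and Mcam was lower (1.88-fold, limma adjusted p = 0.00879, 0.0684 without P7 mononucleated replicate 3). The 8 leukocyte markers summed to 292.5 to 503.8 against 52.06 to 99.95, almost all of it Lyz2, with 340, 284 and 490 against 41.4, 36.7 and 84.9 (limma adjusted p = 0.00116). Without Lyz2 the sums were 8.89 to 13.3 and 15 to 28.9, and C1qb, C1qc, F13a1 and Laptm5 had at most 10 counts over the 6 libraries. No marker was at 0 in all of them. Erythroid (6 genes) and epicardial (7) sums overlapped between the classes, the 5 neural markers summed to 1048 to 1243 against 799.6 to 957.7, and none of the 3 lists had a call in the 18-library fit. The fibroblast sums and Lyz2 were lower in binucleated cells, as were the conduction and secreted protein genes named above. Among the mononucleated libraries replicate 1 was the highest for 13 of 16 fibroblast markers and 16 of 19 conduction genes. Lyz2 was highest in replicate 3. The part of other cells in those results was not tested.

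The class difference at P7 was then set beside that at E18.5 and in the adult. The 248 lower genes had a median log2 fold change of −1.72 at P7, 0.07 at E18.5 and −0.19 in the adult, and 107 of them at E18.5 and 177 in the adult pointed downward. They were chosen on the P7 libraries, so these values are a description. The difference between ages was tested over all genes by an interaction term. It passed for 281 genes, 2.33%, between P7 and E18.5, and for 25, 0.208%, between P7 and adult, of which 140 and 23 were among the 248. At E18.5 the 3 largest medians among the lists of other cells were 4.83 for leukocyte, 2.92 for fibroblast and 2.71 for endothelial markers. These were higher in binucleated cells, and their part in the age difference was not tested. The contrasts share the P7 libraries. Without 1 library, the numbers ran from 160 (P7 mononucleated replicate 3) to 568 (E18.5 binucleated replicate 1) and from 0 (P7 mononucleated replicate 3 or binucleated replicate 2) to 102 (E18.5 binucleated replicate 1).

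Levels over the 3 ages differed from gene to gene. Ccne2 had mean scaled counts of 739 and 665 in mononucleated and binucleated cells at E18.5, 1581 and 213 at P7, and 119 and 73.6 in the adult. Mononucleated cells at P7 had the highest mean of the 6 groups. Rrm2 had 5317 and 6199 at E18.5, 6001 and 1637 at P7, and 160 and 122 in the adult. The mitotic cyclin gene Ccnb1 had 2211 and 6042 at E18.5 and 779 and 688 at P7, with class differences of 1.47 ± 0.41 SE and −0.18 ± 0.41 SE (interaction limma adjusted p = 0.185). Gja5 and Etv1 were highest in P7 mononucleated cells of all 6 groups. Gja5 had 684 and 501 at E18.5, 2944 and 368 at P7, and 76.3 and 25.8 in the adult. Its interaction with E18.5 did not pass (limma adjusted p = 0.0773), whereas that of Etv1 did (0.00199). The 19 conduction genes had a median class difference of −2.04 at P7, 0.003 at E18.5 and −0.76 in the adult. The interaction passed for 7 of them against E18.5 and for 0 against the adult. Slit2 was lower in adult binucleated cells too (−2.50 ± 0.38 SE, limma adjusted p = 0.0149). Mest had its highest means at E18.5, 8982 and 8759, followed by 951 and 170 at P7 and 22.8 and 22.6 in the adult (interaction with E18.5, limma adjusted p = 0.00279). Vldlr had its lowest means at E18.5, 2774 and 2694, then 4199 and 6512 at P7 and 8739 and 9733 in the adult (interaction with E18.5, limma adjusted p = 0.012).

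**Figure D5:**
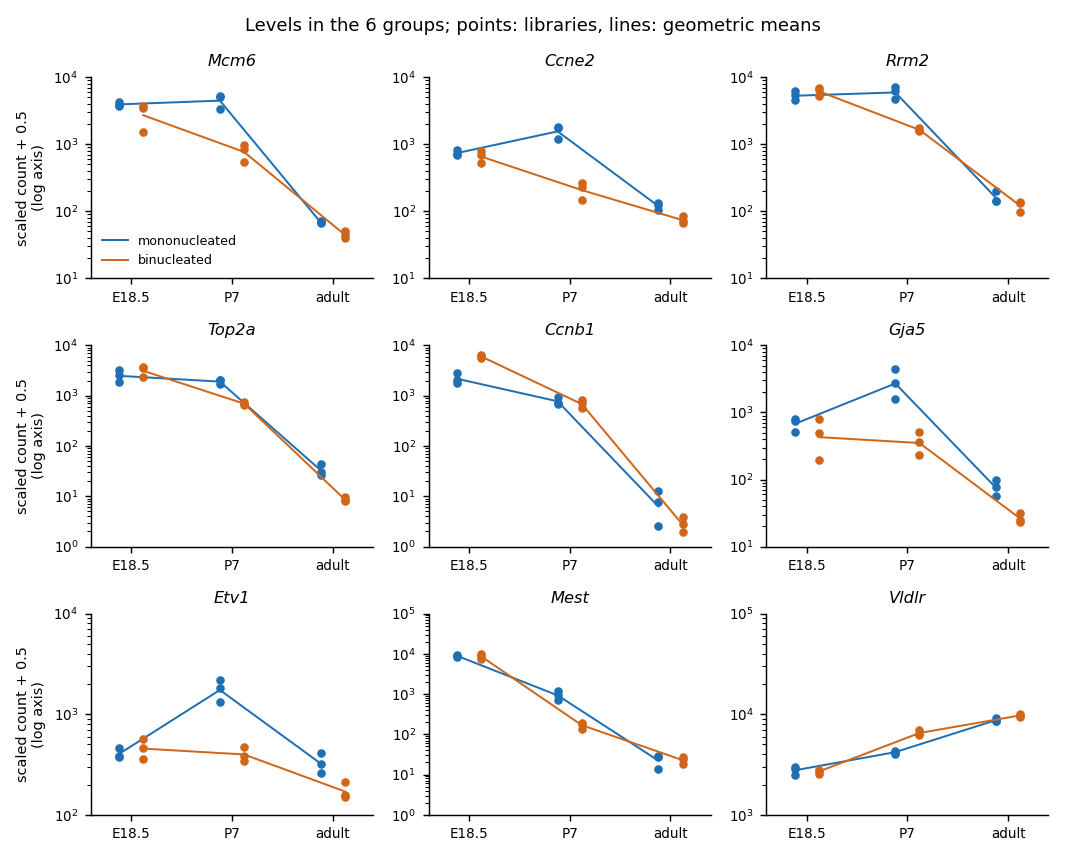
Scaled counts plus 0.5 on a log axis for 9 genes in the 6 groups, mononucleated in blue and binucleated in orange, with a point per library and lines through the geometric means. Class values lie apart at P7 for all but Ccnb1, and the same genes have a smaller mean class difference at E18.5 than at P7.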

How the data were processed

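RNA from sorted cells was purified and made into libraries with a stranded Illumina mRNA kit and a SMARTer amplification kit, per the labels' protocols. STAR, limma and genome build mm9 are named in the submitters' processing notes, which leave the read counter and any gene filter unstated. Each library came with a table of log2 values, which the authors deposited in the form log2 of a whole count plus 0.5 times a library factor. Counts recovered from it were whole within 0.001 for 100% of values. Amplified reads carry no molecular identifiers, so the counting intervals cover counting error only.

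The test was limma 3.58.1 (R 4.3.3) on the deposited log2 values, with 6 group means, 18 libraries, 12 residual degrees of freedom and an intensity trend, two-sided and adjusted by Benjamini and Hochberg over 12048 genes at 0.05. All libraries entered so that the groups share an estimate of spread. Same-numbered P7 libraries were treated as pairs because the correlations of their deviations from group means were 0.182 to 0.236, all over 0.1. The labels give the numbers. Differently numbered libraries had −0.135 to −0.069. Deviations from a group mean cancel within each class, so these negative values follow from the positive ones and are no separate evidence of pairing. The paired fit used the 6 P7 libraries alone and had 2 residual degrees of freedom. Code was tested on simulated data. Symbols came from GENCODE M21 (11927 identifiers matched, 121 did not).

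Genes are named by rule: up to 10 per direction with the largest change among calls that do not overlap and lie in the upper 75% of means, up to 3 of each list ranked by adjusted p among its calls, and 27 followed whatever their result; other genes were chosen after their values were seen. The comparison and the 43 gene lists were chosen with earlier results of these data known. A few members of the lists are not reported here by name. Alternatives were other scalings, filters, weights, fits and each library left out.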

Additional observations from a re-analysis of the deposited data

Results flagged for a closer look

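The class difference, binucleated minus mononucleated, was tested for being different at P7 and at another age. Against E18.5 it differed for 281 genes, 2.33% of all, and against the adult for 25, 0.208%. Among them were 49 and 9 of the 83 named genes. Of those 83, 66 were called at P7, and both contrasts contain the P7 difference. A high share among named genes therefore follows from how they were chosen and is no separate evidence. Values below are the P7 difference minus that of the other age on the log2 scale, with limma adjusted p under the threshold of 0.05.

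Against E18.5 the 3 named genes with a positive value were Cavin4 (0.84), Vldlr (0.67) and Polr1e (0.77). For replication and its control the values were Cdt1 −2.81, Ccne2 −2.74, Uhrf1 −2.82, Mcm6 −2.0, Mcm7 −1.89, Mcm5 −2.22, Mcm3 −2.0, Rpa2 −1.81, Rfc5 −1.80, Prim1 −2.34, Rrm2 −2.08, Tk1 −2.16, Dck −1.51, Asf1b −2.25, Nasp −1.0, Ccne1 −2.29, E2f8 −2.81 and Rbl1 −1.85. For repair they were Mms22l −2.16, Chek1 −2.18 and Rad54l −2.26. Mitotic and structural genes had values of −1.78 for Top2a, −1.74 for Mad2l1, −2.69 for Mastl, −2.71 for Cenpk, −2.55 for Mis18a, −2.26 for Smc2, −2.21 for Ncaph, −1.47 for Incenp, −0.90 for Tubg1, −1.36 for Haus5, −1.39 for Haus4, −0.83 for Tmpo, −1.05 for Nup85, −1.69 for Tubb5 and −4.45 for Tubb4a. Conduction, atrial and imprinted genes had −2.30 for Etv1, −2.68 for Ntm, −2.79 for Slit2, −2.61 for Stard10, −2.42 for Mest and −1.65 for Ndn, and Id1 had −3.08. Markers of other cells had −5.41 for Lyz2, −6.39 for Fbln2 and −2.13 for Fbln1, and the E18.5 binucleated libraries held more of the fibroblast list than the mononucleated ones (median 2.92 at E18.5, −0.72 at P7). The part of those cells in the age difference was not tested.

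Against the adult the values were Ccne2 −2.21, Mcm7 −2.24, Rpa2 −1.78, Rrm2 −1.47, Dck −1.79, Ccne1 −2.19, Haus5 −1.65, Mest −2.50 and Mcam −1.41. Limma called 0 genes without P7 mononucleated replicate 3 and 0 without P7 binucleated replicate 2, where 475 and 507 had an unadjusted p under 0.05.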

How the results depend on the processing

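The main counts at P7 were 8 higher and 248 lower genes. Higher genes numbered 15 with quantile normalization, 90 with the replicate block on the P7 libraries, 53 with those libraries unpaired, 439 with array weights, 14 with voom weights, 76 with the E18.5 libraries left out and 5 with scaling to library totals. Lower genes numbered 165 among genes in the upper 75% of mean value, 688 with the replicate block on the P7 libraries, 555 unpaired, 962 with array weights and 406 with the E18.5 libraries left out. With array weights 68.7% of the called genes were lower, against 96.9% of those called without them. The 281 genes whose class effect differed between P7 and E18.5 became 129 with the filter, 1199 with array weights and 430 with voom. The 25 between P7 and adult became 13 with the filter, 12 with the replicate block on all 18 libraries, 233 with array weights, 1 with voom and 42 with library totals. That block gave 11 higher and 274 lower genes at P7 and ended the calls of Polr1e, Coq3, Cdc6, Ncaph, Nup35, Tubb4a and Id1 (limma adjusted p = 0.0511 to 0.0832). Quantile normalization ended those of Polr1e, Sord, Coq3, Cdc6, Nup35, Id1 and E2f7 (0.0553 to 0.257), and library totals those of Polr1e, Sord and Coq3 (0.0676 to 0.144). Leaving out each library in turn gave 3 to 99 higher and 126 to 475 lower genes, 160 to 568 for P7 against E18.5 and 0 to 102 for P7 against adult. The highest of each came without E18.5 binucleated replicate 1. All 6 omissions of a P7 library moved the lower count by more than 1.5 times, and 42 of the 66 named calls passed without any 1 of the 18 libraries. Among named genes the log2 fold change of Rb1 ran from −0.310 without P7 binucleated replicate 2 to 0.422 without P7 binucleated replicate 3, the log2 fold change of Myh7 was 0.013 with array weights and the log2 fold change of Myl2 was −0.010 with quantile normalization, none of them called. Elsewhere no named gene changed direction. The replicate block on the P7 libraries also called Ccna2, Cdk1, Mki67, Aurkb, Anln, Lmnb1 and Nppa, and ended no named call. Unpaired, the same libraries also called Ccna2, Cdk1, Mki67, Aurkb and Lmnb1, and ended no named call. The cause of these changes was not tested. Omitting the E18.5 libraries and scaling to library totals were chosen after seeing the data, and a planned pseudocount did not apply to values already on the log2 scale. A call at 3 libraries per class needs a difference that is large against the spread, so a gene not called is not shown to be alike.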
